A study of Rattus norvegicus with 16 samples.

Results

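The let-7 family was followed through small RNA libraries of the inbred rat strains BN-Lx and SHR, made from whole testis, kidney, heart, spleen, liver and brain of adult males. Its members were the 10 hairpins rno-let-7a-1, rno-let-7a-2, rno-let-7b, rno-let-7c-1, rno-let-7c-2, rno-let-7d, rno-let-7e, rno-let-7f-1, rno-let-7f-2 and rno-let-7i. They were chosen by name, their antisense entries left out, and are written without the species prefix from here on. The libraries held reads of 392 hairpin entries in all, antisense entries counted. The six-tissue set came from 1 BN-Lx rat and 1 SHR rat and holds 1 library per tissue and strain. The further livers came from 2 more rats of each strain, so that 3 livers per strain and 16 libraries in all were compared. BN-Lx is a brown Norway rat with the polydactyly-luxate syndrome and SHR is the spontaneously hypertensive rat. The labels name no treatment. Whole organs were used, so that fewer cells of a type and less RNA per cell cannot be told apart. The strains are the only replicates of a tissue outside liver, and the 6 tissues of a strain share 1 rat.

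MicroRNAs of the let-7 family are cut from hairpins, and the 5p arm is the strand usually loaded into the silencing complex. All family members share a seed, the stretch near the 5′ end that pairs with target messenger RNAs. The family is known for rising during differentiation and for repressing growth genes such as Lin28, Hmga2 and Ras genes.

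The 10 hairpins give 7 distinct 5p arms, because let-7a-1 and a-2, c-1 and c-2, and f-1 and f-2 have the same mature 5p sequence. Their sequences are shown since every comparison between members rests on single bases outside the seed. The seed, bases 2 to 8, is in capitals, and the sequences are those of RefSeq (GRCr8).
let-7a-5p: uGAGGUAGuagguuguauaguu
let-7b-5p: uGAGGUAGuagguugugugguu
let-7c-5p: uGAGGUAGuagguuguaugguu
let-7d-5p: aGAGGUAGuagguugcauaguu
let-7e-5p: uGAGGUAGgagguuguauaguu
let-7f-5p: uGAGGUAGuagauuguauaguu
let-7i-5p: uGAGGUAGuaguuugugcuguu

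Counted from 1 at the 5′ end, with the base of let-7a first, let-7f carries G12A, let-7e U9G and let-7c A19G. Let-7b carries A17G and A19G, and let-7d carries U1A and U16C. Let-7i is the most distant, with G12U, A17G, U18C and A19U. Let-7a and let-7c thus share their first 18 bases and let-7a and let-7b their first 16, and each read with several possible hairpins had been given to them in equal parts by the authors. In the six-tissue set, with its 12 libraries, reads under 20 nt were 3.17% of the let-7a-5p reads, 6.30% for let-7b-5p and 5.09% for let-7c-5p.

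The 3p arms do not share a seed. The 9 distinct 3p arms fall into 7 seed groups, of which 1 group holds 3 arms and the others 1 each. Let-7a-1 and let-7c-2 have the same 3p sequence and were summed. The 3p sequences are shown for the members whose 3p reads are described below.
let-7a-1/c-2-3p: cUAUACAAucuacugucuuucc
let-7b-3p: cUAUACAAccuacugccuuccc
let-7f-1-3p: cUAUACAAucuauugccuucc
let-7d-3p: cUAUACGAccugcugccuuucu
let-7i-3p: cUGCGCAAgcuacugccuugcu

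The hairpins lie at 7 loci, given on RefSeq GRCr8, which is a later build than the one the reads were mapped to. Let-7a-1 (chr17:16320133-16320226), f-1 (chr17:16320501-16320589) and d (chr17:16322260-16322357) follow each other on the plus strand inside the long non-coding RNA gene LOC120097935. Let-7c-2 (chr7:118683623-118683717) and the mature arms of let-7b (chr7:118684044-118684119) are 327 bp apart on the plus strand, with no other listed gene across them. Let-7i (chr7:60527877-60527961, minus strand) lies within LOC134479799. Let-7e (chr1:67350229-67350321, plus strand) lies in Spaca6 between mir-99b and mir-125a. Let-7c-1 (chr11:29688112-29688205) lies in LOC103693508 with mir-99a and mir-125b-2, and let-7a-2 (chr8:50805203-50805298) in Lnc215 with mir-100 and mir-125b-1, both on the plus strand. Let-7f-2 (chrX:24460045-24460127, plus strand) lies in Huwe1, 521 bp from mir-98, which carries the same seed. Whether a hairpin lies in an exon or an intron was not analysed here.

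The libraries of the six-tissue set held 26880 to 1064894 miRNA reads and the further livers 1167607 to 3229461. The testis libraries were the smallest, with 434 let-7 reads for BN-Lx and 828 for SHR, and had more PCR cycles than most, as had the liver of the SHR rat, with the most. Of 14 distinct miRNAs fixed as tissue markers, 13 had their highest mean level in the labelled tissue, the exception being the kidney marker mir-192-5p, which was highest in liver. A level is the reads of an arm over the outlier-corrected mean, which averages the known arms of a library after its 3 largest are dropped. The summed level of the vessel marker mir-126-3p ranged from 1.19 to 17.8 in the six-tissue set and that of the smooth muscle markers from 14.9 to 167.5, and their part in the results was not tested.

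Let-7 reads made up 1.61% to 3.97% of the miRNA reads in the six-tissue set. In BN-Lx the share was 3.97% in brain, 3.28% in liver, 2.47% in spleen, 2.33% in heart, 1.61% in testis and 2.49% in kidney. In SHR it was 3.22% in brain, 3.22% in liver, 3.57% in spleen, 2.95% in heart, 2.84% in testis and 3.75% in kidney. The order of tissues was not shared, since brain was highest in BN-Lx and kidney in SHR. The widest exact 95% binomial interval, that of BN-Lx testis, ran from 1.47% to 1.77% and covers counting error only. The share did not differ between tissues beyond the spread between the strains (exact permutation test over the 720 orders of the SHR tissues, one-sided for a larger spread between tissues, p = 0.238).

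What differed was the mix of members. Let-7f-5p was the most abundant member in 13 of the 16 libraries, and let-7a-5p came first in the other 3, which were both testis libraries and SHR kidney. The share of the let-7 5p reads needs no scaling between libraries, but the shares of the members sum to 100% and so cannot move freely of each other. This comparison was added after the data had been seen.

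**Figure D1:**
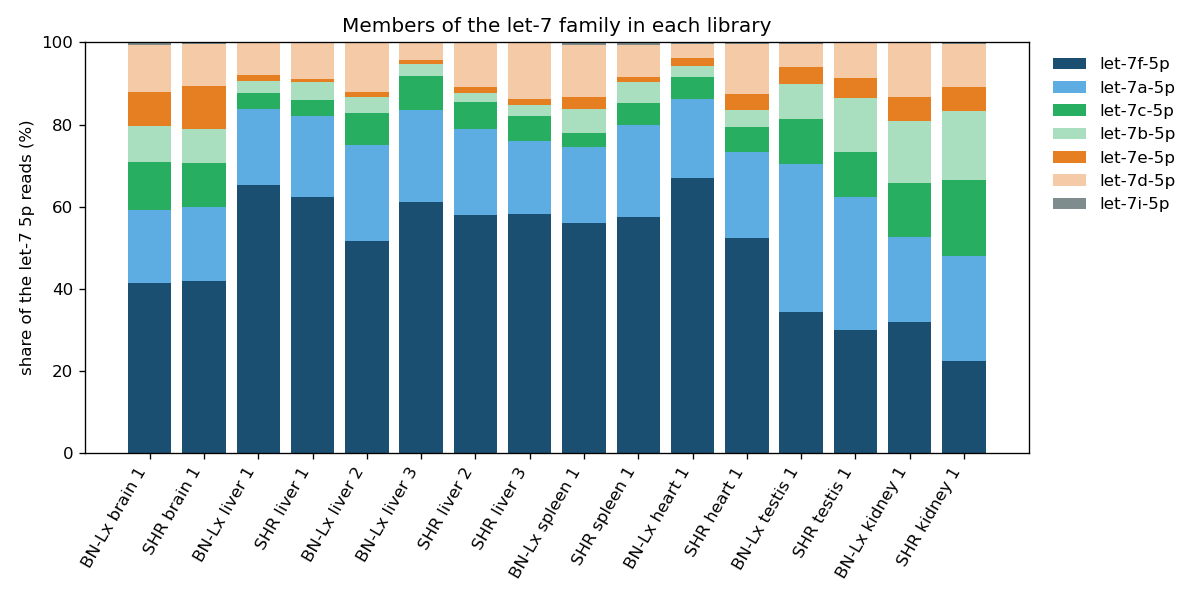
Share of the let-7 5p reads (%, vertical axis) taken by each of the 7 members, stacked, in each of the 16 libraries (horizontal axis). Let-7f-5p takes 62.3% and 65.3% in the livers of the six-tissue set against 22.4% and 31.9% in kidney, where let-7b-5p and let-7c-5p are widest.

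Let-7f-5p took 65.3% of the let-7 5p reads in BN-Lx liver and 62.3% in SHR liver. It took 67.0% and 52.3% in heart and 56.0% and 57.5% in spleen, BN-Lx first. These 3 tissues lay above brain (41.3% and 41.9%), and brain lay above testis (34.4% and 29.8%) and kidney (31.9% and 22.4%), with no overlap between these 3 tiers. Within the tiers the ranges of liver and heart, of heart and spleen, and of testis and kidney overlapped. The share differed between tissues (exact permutation test as above, adjusted p = 0.013 over 7 members, 95.6% of the variance left after strain lay between tissues).

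Let-7a-5p, which differs from let-7f-5p at 1 base, took 17.8% to 25.7% of the let-7 5p reads in the 10 libraries of brain, liver, spleen, heart and kidney of the six-tissue set. In testis it took 35.9% in BN-Lx and 32.6% in SHR, above all of those (adjusted p = 0.013, exact permutation test between tissues). The testis values rest on 149.5 and 261 reads.

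Let-7b-5p and let-7c-5p, both marked by the G at base 19, were widest in kidney. Let-7b-5p took 15.2% in BN-Lx kidney and 16.9% in SHR kidney, then 8.65% and 13.1% in testis, 8.70% and 8.33% in brain, and 2.69% to 5.93% in spleen, liver and heart. Let-7c-5p took 13.2% and 18.4% in kidney, 11.8% and 10.7% in brain, 10.9% and 10.99% in testis, and 3.27% to 6.07% in heart, spleen and liver. For both, kidney did not overlap any other tissue, and brain and testis overlapped each other (adjusted p = 0.00972 for let-7b-5p, where the raw p of 0.00139 is the smallest the exact permutation test can give, and 0.0194 for let-7c-5p).

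Let-7e-5p was widest in brain, at 8.22% in BN-Lx and 10.4% in SHR. It took 5.77% and 5.78% in the 2 kidney libraries, 4.09% and 4.74% in testis, 1.32% to 4.00% in heart and spleen, and 1.29% and 0.775% in liver. Brain and kidney each stood clear of the tissue below, and the mean share in brain was 9.03 times that in liver (adjusted p = 0.0447, exact permutation test). Let-7i-5p was the rarest, at 0.113% to 0.673% in the six-tissue set. Its mean share was highest in spleen and then brain, whose range the BN-Lx testis value of 0.481% entered on 2 reads (adjusted p = 0.0470, exact permutation test). Let-7d-5p took 3.46% in BN-Lx heart to 13.0% in BN-Lx kidney, and its share did not differ between tissues beyond the spread between strains (adjusted p = 0.804, exact permutation test). With 5 tissues the smallest raw p is 0.00833, and without testis the adjusted p was 0.0467 for let-7a, b, c, f and i and 0.0681 for let-7e.

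The levels relative to the library were tested for each arm with edgeR over all 455 arms that passed the filter on low counts. Of the 16 let-7 arms 14 passed, and let-7a-2-3p (0 to 19 reads) and let-7f-2-3p (0 to 6 reads) did not. Of the 14, 9 differed between tissues at an adjusted p under 0.05, against 83.7% of all arms tested, so the family was called no more often than miRNAs in general. The 9 were the 5p arms of let-7a, b, c, e, f and i and the 3p arms let-7d-3p, f-1-3p and i-3p. Let-7f-5p had the smallest adjusted p of them (2.21e-05).

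**Figure D2:**
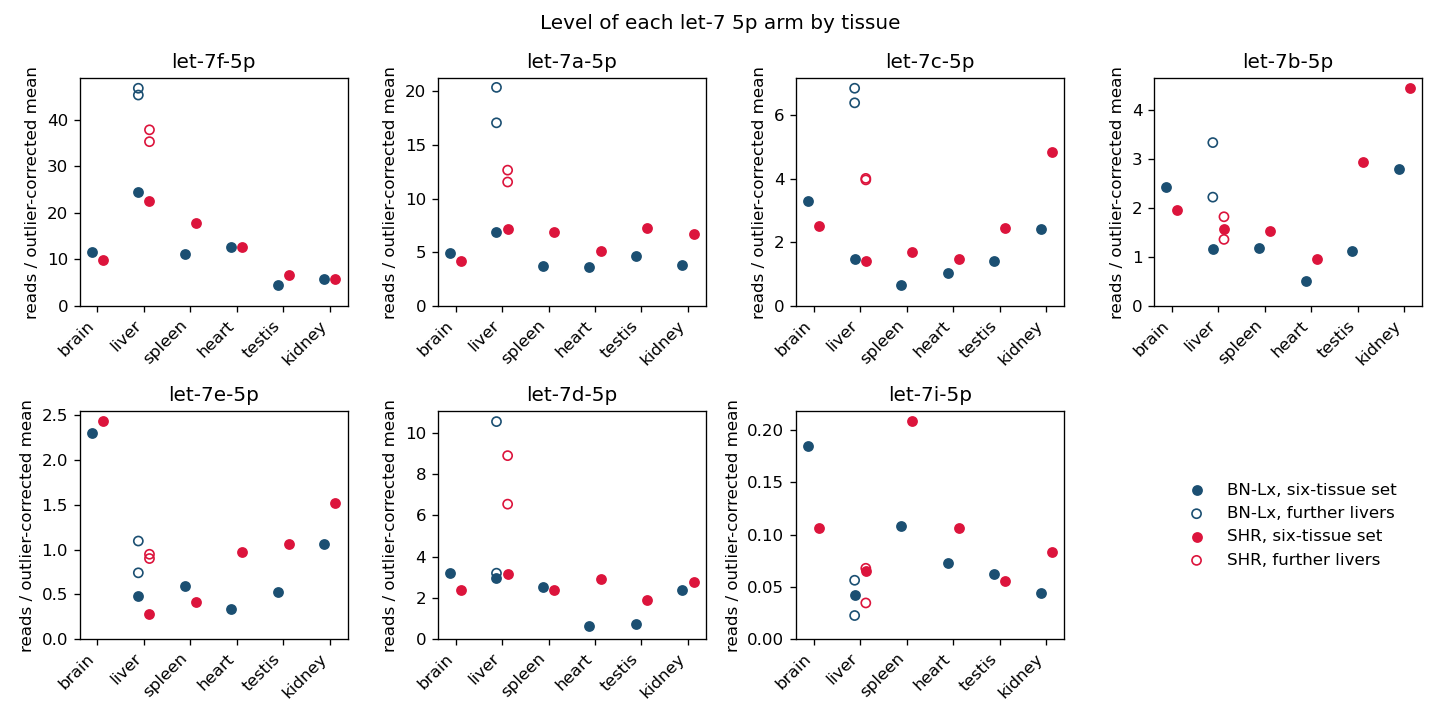
Level of each let-7 5p arm (reads over the outlier-corrected mean, vertical axis) in the 6 tissues (horizontal axis), with filled points for the six-tissue set and open points for the further livers. Let-7f-5p is highest in liver, let-7e-5p in brain, and the further livers lie above the other livers for most arms.

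Let-7f-5p had a level of 24.5 in BN-Lx liver and 22.5 in SHR liver. Spleen had 11.2 and 17.8, heart 12.7 and 12.7, and brain 11.5 and 9.80, BN-Lx first. Kidney had 5.87 and 5.88, and testis 4.46 and 6.68. On this scale liver stood above every other tissue in both strains, while spleen and heart, and kidney and testis, overlapped. As a share of the miRNA reads of the library, let-7f-5p took 1.94% to 2.10% in liver and 1.32% to 2.01% in spleen, which overlapped. Liver exceeded the mean of the other 5 tissues by a log2 fold change of 1.65 (SE 0.21, edgeR adjusted p = 0.000103, 25.9% of all arms called in liver, 13.8% higher and 12.1% lower). Testis was lower by a log2 fold change of -2.13 (SE 0.28, edgeR adjusted p = 7.28e-05, 25.1% of all arms called, 11.2% higher and 13.8% lower). Both calls held in each of the 23 and 22 settings in which they were fitted, at 0.84 to 2.70 in liver and -2.55 to -1.08 in testis.

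The size of the testis contrasts depends on the scaling. The median log2 fold change of all 455 arms in testis was -0.87 with TMM, the scaling used, and 0.14 with the outlier-corrected mean, and that of the 14 let-7 arms moved with it from -1.10 to -0.12. Let-7f-5p in testis moved from -2.13 to -1.14 between these scalings, and it stayed below the median arm in both. Let-7d-5p was also called lower in testis (log2 fold change -1.99, SE 0.56, edgeR adjusted p = 0.0187), from levels of 0.717 in BN-Lx and 1.90 in SHR against 2.39 to 3.20 in brain, liver, spleen and kidney. BN-Lx heart was as low (0.658) while SHR heart was not (2.93). The testis difference was -1.01 with the outlier-corrected mean (adjusted p = 0.183) and lost its call without either testis library (adjusted p = 0.286 without BN-Lx, 0.0555 without SHR).

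Smaller differences of let-7f-5p were called in 3 more tissues. It was higher in spleen (log2 fold change 0.90, SE 0.22, edgeR adjusted p = 0.00874, 29.7% of all arms called, 19.3% higher and 10.3% lower) and in heart (0.80, SE 0.22, adjusted p = 0.0232, 19.8% called, 12.5% higher and 7.25% lower). It was lower in kidney (-0.81, SE 0.25, adjusted p = 0.0391, 22.2% called, 14.7% higher and 7.47% lower). Across the settings tried the values kept their sign, at 0.47 to 1.03 in spleen, 0.30 to 0.92 in heart and -1.28 to -0.68 in kidney, but the call was lost in 7, 10 and 12 of 23 settings.

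Let-7b-5p and let-7c-5p were called higher in kidney. Let-7b-5p had levels of 2.79 and 4.44 in kidney, 2.43 and 1.95 in brain, 1.12 and 2.93 in testis, 1.16 and 1.57 in liver, 1.18 and 1.52 in spleen and 0.511 and 0.955 in heart, BN-Lx first. Only SHR testis reached the lower kidney library. The log2 fold change against the other 5 tissues was 1.54 (SE 0.34, edgeR adjusted p = 0.00575), and the call held in 23 of 24 settings. Let-7c-5p had levels of 2.42 and 4.84 in kidney, and its range there overlapped those of brain (3.29 and 2.51) and testis (1.42 and 2.46). Its log2 fold change in kidney was 1.33 (SE 0.33, edgeR adjusted p = 0.0128). The let-7c-5p call was lost with the outlier-corrected mean, without SHR kidney and with all 16 libraries, with values of 0.94 to 1.61 over 23 settings (adjusted p up to 0.3195). Over the 12 libraries the levels of let-7b-5p and let-7c-5p had a Spearman rho of 0.78, the highest of the 11 pairs of linked arms compared. The values of a pair share the library and its scaling. The hairpins let-7b and let-7c-2 are neighbours, while let-7c-1 lies on another chromosome and the 5p reads do not tell c-1 from c-2.

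Let-7e-5p was called higher in brain. Its levels were 2.30 and 2.43 in brain, 1.06 and 1.52 in kidney, 0.530 and 1.06 in testis, 0.340 and 0.968 in heart, 0.590 and 0.410 in spleen and 0.482 and 0.280 in liver, BN-Lx first. Brain stood clear of all other tissues and the strains were close to each other in it. The log2 fold change was 1.41 (SE 0.43, edgeR adjusted p = 0.0123, 62.4% of all arms called in brain and 39.1% called higher). The call was lost without BN-Lx brain, without SHR brain and with all 16 libraries, and the values ran from 1.17 to 2.09 over 24 settings (edgeR or DESeq2 adjusted p up to 0.0977). No other let-7 arm was called in brain in the main fit, which used TMM. With TMM kept, others were called there without the filter, with paralogues summed and with some libraries left out. Scaling by total reads called 6 let-7 arms there, DESeq2 3, and RLE size factors or the outlier-corrected mean 2.

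Let-7a-5p was called higher in liver with levels of 6.90 and 7.17 against 3.65 to 7.29 elsewhere, so that SHR testis and SHR spleen (6.93) reached it. Its log2 fold change of 0.79 (SE 0.27, edgeR adjusted p = 0.0459) was -0.03 when libraries were scaled by total reads (adjusted p = 1), and the call held in 6 of 23 settings. Let-7i-5p was called higher in spleen (levels of 0.108 and 0.209, log2 fold change 1.40, SE 0.41, edgeR adjusted p = 0.0221), where it overlapped brain (0.185 and 0.107), and the call held in 13 of 24 settings. In the same spleen libraries the blood-cell markers mir-150-5p, mir-142-3p and mir-223-3p summed to levels of 156 and 165.1, against 4.09 to 19.4 in the other tissues of the six-tissue set, and their part in the let-7i difference was not tested.

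**Figure D3:**
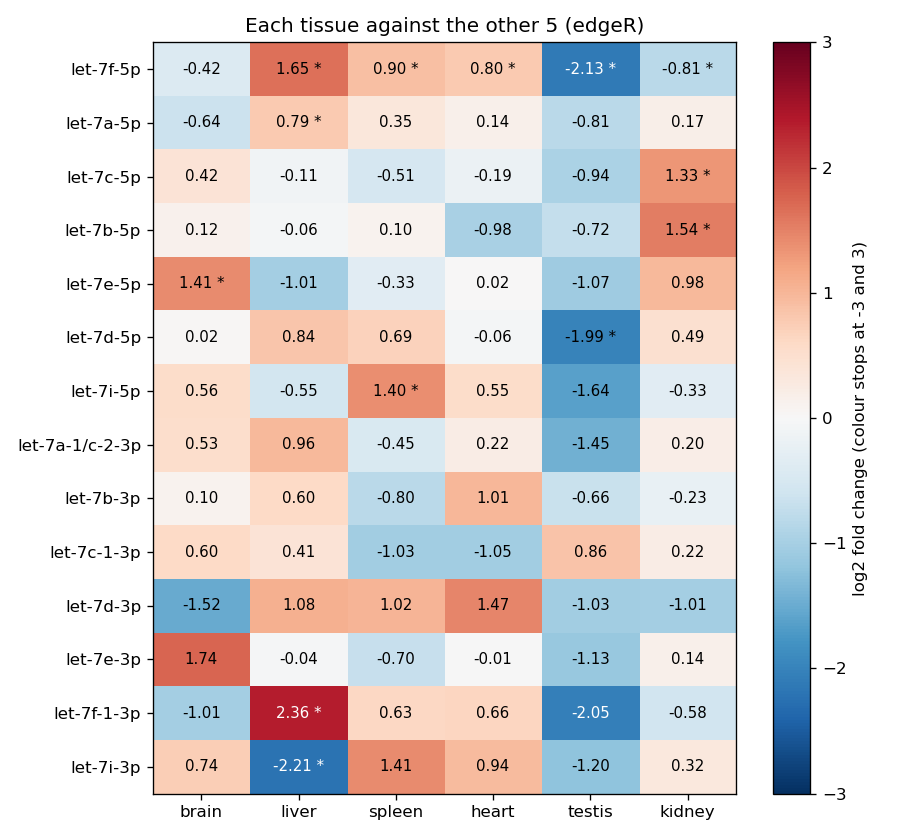
Log2 fold change (colour and number) of each let-7 arm tested (vertical axis) in each tissue against the other 5 (horizontal axis), from edgeR with TMM over the 12 libraries of the six-tissue set. Asterisks mark the 13 values with an adjusted p under 0.05, of which let-7f-5p has 5, and the testis column moves upwards with other scalings.

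Over the 14 arms and 6 tissues, 13 values were called, 9 higher and 4 lower, against 30.8% of all pairs of an arm and a tissue. The median log2 fold change of all arms moved with the scaling in other tissues too, from -0.38 with TMM to -1.18 with total reads in liver, from -0.38 to -0.85 in heart and from 0.48 to 1.19 in brain. Of all arms called, the share that was higher was 53.4% in liver with TMM and 24.4% with total reads, 44.7% and 85.0% in testis, 63.3% and 41.3% in heart, 65.2% and 49.6% in spleen, and 62.7% and 74.9% in brain. In kidney it was 66.3% with TMM and 53.0% with RLE size factors. The study's rule for tissue-specific miRNAs, a level 5 or more times above or below those of the other tissues in each strain, held for 0 of the 16 let-7 arms. Each of the 7 5p arms had reads in each of the 16 libraries, the fewest being the 2 reads of let-7i-5p in each testis library.

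The strains were compared in liver with 3 rats each. Let-7f-5p had levels of 24.5, 45.3 and 46.7 in BN-Lx and of 22.5, 35.3 and 37.8 in SHR, the six-tissue liver first. For let-7a-5p the BN-Lx livers had 6.90, 20.4 and 17.1 and the SHR livers 7.17, 12.7 and 11.6. For let-7c-5p they had 1.48, 6.84 and 6.38 against 1.41, 4.01 and 3.96. In each of the 3 arms the further BN-Lx livers lay above the further SHR livers, but the livers of the six-tissue set were lowest in both strains, so that the strains overlapped. The log2 fold changes of SHR against BN-Lx were -0.29 (SE 0.49) for let-7f-5p, -0.52 (SE 0.58) for let-7a-5p and -0.65 (SE 0.75) for let-7c-5p. Let-7b-5p had -0.56 (SE 0.52), let-7d-5p 0.11 (SE 0.74), let-7e-5p -0.11 (SE 0.66) and let-7i-5p 0.41 (SE 0.56). Of 11 let-7 arms tested 0 were called by edgeR (0 of 11 at an unadjusted p under 0.05, adjusted p = 0.997 for each) and 0 by DESeq2, against a background of 0.0% of 266 arms. The study's test in windows of 41 miRNAs, rerun on the arms counted here, called 6 of 439 arms and 0 of the 15 let-7 arms among them. Let-7d-3p had an unadjusted p under 0.05 in it. From its own counts the study reported fewer miRNAs, none of them a let-7 member. The study also ran qPCR on the strains for let-7a and mir-34a, and found a significant difference for mir-34a only. The biological coefficient of variation was 0.626 in the edgeR fit of the 6 livers and 0.424 with the liver number as a block. It was 0.461 with only the six-tissue set against the further livers as a term. In the fit with the liver number as a block, let-7c-5p had -0.52 (SE 0.24) and let-7f-5p -0.27 (SE 0.20). Both were lower in SHR at each of the 3 liver numbers, which are not known to be pairs. Let-7d-3p was the 1 let-7 arm at an unadjusted p under 0.05 there, higher in SHR by 0.74 (SE 0.28), and 0 let-7 arms were called (edgeR adjusted p = 0.485 for let-7d-3p).

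The further livers stood apart from the livers of the six-tissue set in both strains. Let-7 reads were 6.15% and 5.54% of the miRNA reads in the further BN-Lx livers and 4.50% and 4.66% in the further SHR livers, against 3.28% and 3.22% in the six-tissue livers. Let-7f-5p, a-5p, c-5p and e-5p were higher as a share of the library in each further liver than in each six-tissue liver. Several 3p arms went the other way, and let-7a-1/c-2-3p, b-3p, d-3p, e-3p and f-1-3p were lower in each further liver. Let-7e-3p had only 1 to 8 reads per liver. For let-7a-2-3p, c-1-3p, f-2-3p and i-3p the 2 sets of livers overlapped. Some markers moved with the set as well. The vessel marker mir-126-3p had levels of 19.6 to 34.5 in the further livers against 9.28 and 11.04 in the six-tissue livers, and the liver marker mir-122-5p 542.3 to 651.7 against 309.9 and 373.9. The summed heart markers mir-208-3p, mir-1-3p and mir-133a-3p did not follow the set. They had 0.754 and 0.714 in the livers numbered 3 and 0.0089 and 0.0104 in those numbered 2, BN-Lx first. The six-tissue livers had 0.131 and 0.0937. The part of the markers in the let-7 difference was not tested. The 2 sets also differ in rats, in sequencing depth, in the shortest reads listed and, for SHR, in PCR cycles, which cannot be told apart. The strain difference with the set as a batch term was -0.27 for let-7f-5p and -0.42 for let-7a-5p, and within the 4 further livers alone -0.20 and -0.51. In each of these fits 1 let-7 arm had an unadjusted p under 0.05 and 0 were called, let-7d-3p with the batch term and let-7c-5p in the further livers.

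Over the 6 tissues SHR differed from BN-Lx in 0 of 14 let-7 arms by edgeR (0 at an unadjusted p under 0.05) and 0 by DESeq2 (3 at an unadjusted p under 0.05), against 0.0% of 455 arms. At an unadjusted p under 0.05 edgeR gave 7 arms and DESeq2 18, none of the 7 a let-7 arm. This compares 2 rats. The 7 5p arms had log2 fold changes of 0.15 for let-7f-5p to 0.57 for let-7b-5p, each higher in SHR. The strain difference in each tissue was also set against that in liver, and 0 let-7 arms were called in any of the 5 tissues (background 0.0% to 0.201% of 498 arms).

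The share of 3p reads differed widely between members. Over the 16 libraries let-7 gave 631397 reads from 5p arms and 8797 from 3p arms. Let-7f had 3p shares of 0.0% to 0.503%. The 3p share of let-7b was at most 6.64% and that of let-7a and c together at most 5.84%.

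**Figure D4:**
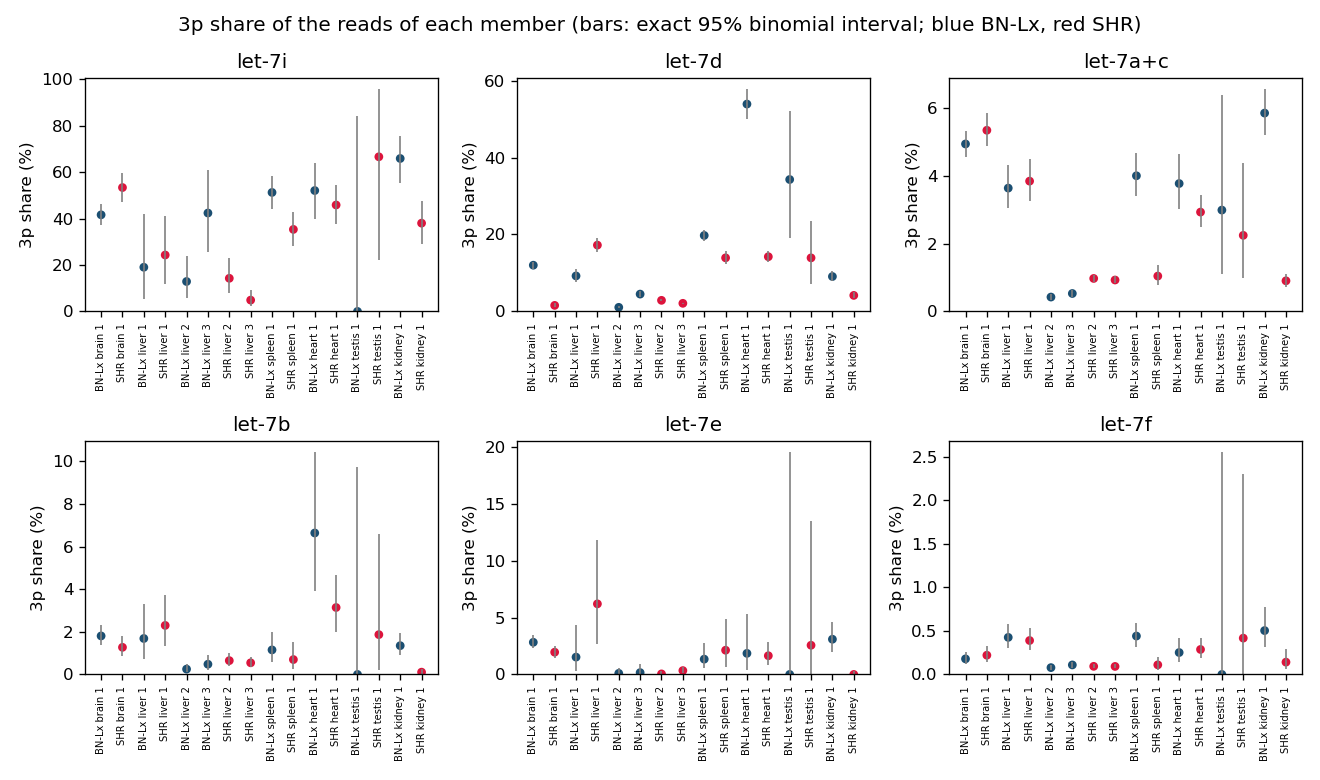
Share of 3p reads (%, vertical axis) of let-7i, d, a and c together, b, e and f in each library (horizontal axis; blue BN-Lx, red SHR), with bars for the exact 95% binomial interval. Let-7i and let-7d have the highest shares, the axes differ between panels, and the further livers are low in nearly every panel.

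Let-7i gave 3p and 5p reads in like numbers in several tissues. Brain gave 192 3p and 269 5p reads for BN-Lx, with 141 and 123 for SHR. Spleen gave 99 3p and 94 5p reads for BN-Lx, with 64 and 117 for SHR. Liver gave only 4 3p and 17 5p reads for BN-Lx, with 9 and 28 for SHR. The 3p arm made up 35.4% to 65.9% in brain, spleen, heart and kidney, against 19.0% and 24.3% in the livers of the six-tissue set. The further livers had 12.9%, 14.3% and 4.88%, and BN-Lx liver 3, at 42.4% (14 3p and 19 5p reads), lay inside the range of the other tissues. Testis had too few reads to place it, with 0 of 2 let-7i reads from the 3p arm in BN-Lx and 4 of 6 in SHR. The level of let-7i-3p in liver was lower than in the other 5 tissues (log2 fold change -2.21, SE 0.72, edgeR adjusted p = 0.0411), a call held in 14 of 24 settings.

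Let-7d-3p reads were uneven between the strains in brain and heart, with 1 library per strain in each. In brain it had 636 reads beside 4657 5p reads in BN-Lx and 44 beside 2756 in SHR, or 12.02% and 1.57%. In heart it had 360 reads beside 308 5p reads in BN-Lx and 361 beside 2177 in SHR, or 53.9% and 14.2%. In brain it was the 3p count that was low in SHR, and in heart the 5p count in BN-Lx. The strain difference of let-7d-3p in brain against that in liver was -4.71 on the log2 scale (edgeR quasi-likelihood test, adjusted p = 0.91).

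Let-7f-1-3p was called higher in liver. It had 38 reads in each six-tissue liver, a level of 0.0945 in BN-Lx and 0.0879 in SHR, against 0.0 to 0.0459 in the other tissues, with 0 reads in BN-Lx testis. Its log2 fold change in liver was 2.36 (SE 0.56, edgeR adjusted p = 0.0102), and the 5p arm was called higher there too. The call was lost without either liver library and with scaling by total reads, with values of 1.56 to 3.61 over 24 settings (adjusted p up to 0.175). The further livers had levels of 0.0281 to 0.0463, which lay below the six-tissue livers and reached into the range of the other tissues. Since the 3p arms differ in sequence between f-1 and f-2, these reads belong to the f-1 hairpin on chromosome 17. Let-7f-2-3p had at most 7 reads in any library. The 3p arm shared by let-7a-1 and let-7c-2 had 5 to 568 reads, and let-7a-2-3p had at most 19. Reads of the shared arm do not tell let-7a-1 from let-7c-2.

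The 3p share did not differ between tissues beyond the spread between strains for the whole family (exact permutation test, adjusted p = 0.857) or for any of let-7b, d, e, f, i and a with c (adjusted p = 0.379 to 0.922 over these 7 tests). A p that misses the threshold does not show equal shares, and the testis libraries held 18 and 27 3p reads.

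The ends of the reads were also compared. The 5′ end was nearly fixed, and 98.1% to 99.4% of the 5p reads of each member started at its most frequent base over the 12 libraries. The 3′ end varied. Reads of 22 nt were the most frequent for let-7a, b, c, d, e and f, at 37.4% of the let-7e-5p reads to 65.9% of the let-7c-5p reads. Let-7e-5p and let-7f-5p had a second peak at 20 nt (24.7% and 18.2%), let-7d-5p held more reads of 21 nt (31.3%) and let-7b-5p more of 23 nt (13.7%) than the others.

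**Figure D5:**
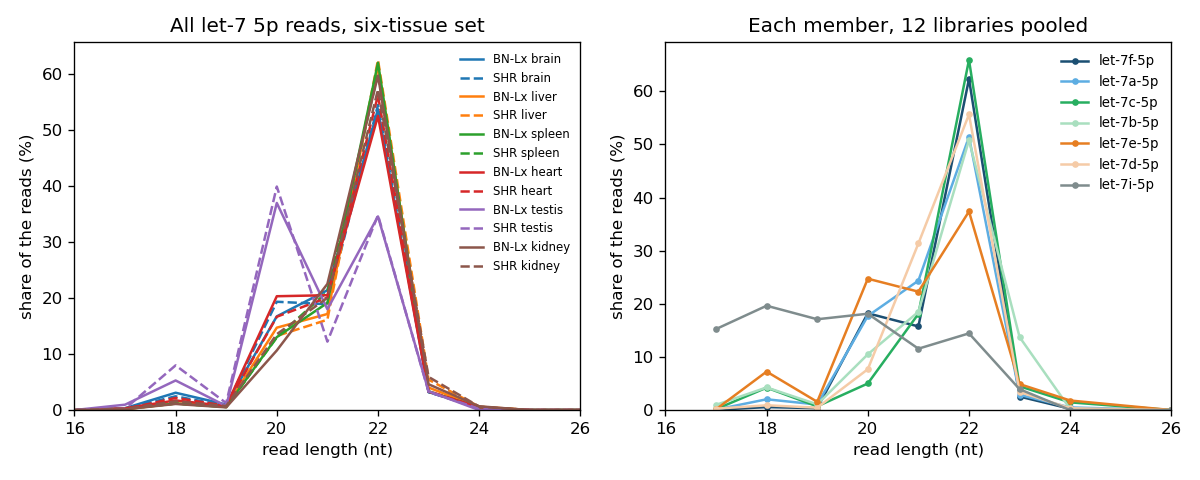
Left, length distribution of the 5p reads of the let-7 family (nt on the horizontal axis, % of the reads on the vertical axis) in each of the 12 libraries of the six-tissue set. Right, the same for each member with the 12 libraries pooled. The testis libraries have 37.0% and 39.95% of the reads at 20 nt, and let-7i-5p has no single peak.

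Let-7 5p reads were shorter in testis. Their mean length was 20.8 nt in BN-Lx testis and 20.7 nt in SHR testis, against 21.3 to 21.6 nt in the other 10 libraries of the six-tissue set, with no overlap. In testis, reads of 20 nt made up, over the family, 37.0% for BN-Lx and 39.95% for SHR, while the other tissues had 10.7% to 20.3%. Reads of all other arms had a mean length of 21.9 and 21.8 nt in testis, inside the range of 21.7 to 22.1 nt over the other tissues. The mean length of let-7 5p reads differed between tissues (exact permutation test, raw p = 0.00972, adjusted p = 0.0259 over 8 tests), and so did those of let-7c-5p and d-5p (adjusted p = 0.0259 each), f-5p (0.0472) and e-5p (0.0489). Without the testis libraries the adjusted p for the family was 0.156. Let-7f-5p reads averaged 20.8 nt in both testis libraries and 21.4 to 21.6 nt elsewhere. Not every member was clearly shorter in testis. Let-7c-5p averaged 21.36 nt in BN-Lx testis, close to 21.38 nt in BN-Lx brain, and 20.94 nt in SHR testis. Let-7b-5p averaged 21.04 nt in SHR testis, above 20.85 nt in SHR heart.

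Let-7i-5p had an unusual profile. Its reads were spread over 17 to 22 nt with 11.5% to 19.6% at each length, and 52.0% of them were under 20 nt, against 0.972% to 8.94% for the other members. The related let-7g-5p, which was not among the hairpins counted here, shares the first 16 bases of let-7i-5p and differs by G17A and U19A, with the base of let-7i first. Its sequence is shown because it sets which reads are ambiguous.
let-7g-5p: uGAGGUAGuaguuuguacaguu

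Reads of up to 16 nt fit both. The six-tissue set held 0.0% of such reads, and in the further livers they were 15.8% to 47.4% of the let-7i-5p reads. The ambiguity therefore concerns the further livers.

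Hairpins beside the let-7 hairpins were listed by position. Over the 12 libraries the level of let-7e-5p had a Spearman rho of 0.52 with mir-99b-5p and of 0.34 with mir-125a-5p, which flank it. For let-7c-5p it was 0.02 with mir-99a-5p and 0.33 with mir-125b-2-5p, and for let-7a-5p -0.08 with mir-100-5p and -0.27 with mir-125b-1-5p. These values describe 12 libraries that share a scaling, and let-7a-5p and let-7c-5p each sum reads of hairpins at different loci. Among the members on chromosome 17 rho was 0.31 for let-7a-5p with f-5p, 0.38 for a-5p with d-5p and 0.48 for f-5p with d-5p.

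Mir-98-5p, which has the let-7 seed and lies beside let-7f-2, was rare. Its level was 0.2497 and 0.140 in brain, BN-Lx first, 0.0344 to 0.0927 in liver, spleen, heart and kidney of the six-tissue set, and it had 0 reads in both testis libraries. Brain stood above the other tissues in both strains. Its rho with let-7f-5p was 0.21.

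Of 367 arms of other families with a mean of at least 10 reads, the 5 whose level was most like the summed let-7 5p level over the 12 libraries were mir-200b-5p (Spearman rho 0.68), mir-144-3p (0.62), mir-210-3p (0.61), mir-206-3p (0.60) and mir-674-3p (0.59). No rho was close to 1, and the 5 are the highest of 367 values. Pearson r was only 0.17 for mir-200b-5p and 0.23 for mir-144-3p, against 0.53 to 0.76 for the others. Mir-144-3p and mir-206-3p had means of only 15.9 and 13.1 reads.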

How the data were processed

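Small RNA of 16 rat tissue samples was sequenced on SOLiD, 1 library per sample. The authors mapped trimmed reads to miRNA hairpins with SHRiMP, kept perfect matches and divided a read evenly among the hairpins it fits. The deposited values are these estimated counts per start and end position on a hairpin, with no normalization. A read was given to an arm when its midpoint lay within 10 nt of that of the arm's most frequent read, and reads of let-7 hairpins with the same arm were summed.

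Counts were rounded and tested with edgeR 4.0.16 (quasi-likelihood, TMM, filterByExpr, R 4.3.3) over all arms, with tissue and strain as terms in the six-tissue set (12 libraries) and strain in the 6 livers, and p-values were adjusted by Benjamini-Hochberg over all arms. DESeq2 1.42.0 was an alternative. Shares, 3p shares (0.5 read added) and read lengths were tested by exact permutation (numpy 2.4.6, scipy 1.17.1). The fits were also run on simulated counts with known changes. All arms had the same biological coefficient of variation there. Apart from the known changes, all libraries had the same mean profile, with no gap between the 2 sets of livers. The rates are over arms of all levels and are not those of a given let-7 arm. The median estimate lay 0.041 to 0.38 above the true log2 value. Liver against the other 5 tissues called 28.8% of the arms changed by a log2 fold of 1 and 72.3% of those changed by 2. For SHR against BN-Lx in liver these were 2.17% and 27.1%. The lack of calls between the strains in liver therefore does not show equal levels. The p-values between tissues measure the spread between 1 rat of each strain. Outside liver each tissue had 1 library per strain.

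Replicate numbers of the livers were checked for pairing: deviations of same-numbered livers from their strain mean correlated at 0.664, 0.568 and 0.296. A gap between the six-tissue livers and the further livers in both strains makes these values positive by itself. The check therefore cannot tell whether livers numbered 2 or 3 are pairs, and the labels state no pairing. A fit with the replicate block was run as an alternative. Number 1 marks the six-tissue rats in both strains.

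The members and lists were chosen with earlier results of these data known. The genes named are both arms of the 10 let-7 hairpins, mir-98, hairpins within 50 kb on the same strand, and the 5 arms most like the let-7 5p sum. Other scalings, filters, read-length limits, left-out libraries and pooled paralogues were tried. Total reads were 26880 to 3229461 per library, and binomial intervals cover counting error only. The text that describes the columns holds no measurements and was not used.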

Additional observations from a re-analysis of the deposited data

Results flagged for a closer look

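Reads outside the mature arms were counted in each library and are given where they exceeded 3, the number a count of 0 allows. Reads antisense to let-7 hairpins numbered 4 in BN-Lx brain, 16.3 and 7 in the further BN-Lx livers and 33.3 and 36.7 in the further SHR livers. Of all antisense reads, 89.3 fell on let-7a-1. Reads in the loop of let-7 hairpins numbered 26 in BN-Lx brain, 8 in SHR brain, 4 in BN-Lx spleen, 6 in BN-Lx liver 2 and 10 in SHR liver 2.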

How the results depend on the processing

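The count of let-7 arms that differed between tissues, 9 of 14, was 4 with the outlier-corrected mean as scale and 5 with reads of at least 20 nt, and 4 to 10 with 1 library left out (4 without BN-Lx spleen, BN-Lx testis, SHR liver or SHR spleen, and 5 without BN-Lx liver). The 13 calls of a tissue against the other 5 became 0 under the 5-fold rule and 7 to 13 with 1 library left out (7 without BN-Lx spleen, 8 without BN-Lx heart or SHR spleen). These counts can hold new calls: without BN-Lx brain or SHR testis 10 of 13 were among the 13. With the outlier-corrected mean 7 of 9 were, with total reads 7 of 14, and with all 16 libraries 6 of 9, with 0 in brain, spleen, heart and kidney. The adjusted p for the length of let-7 5p reads was 0.0944 for the share of reads of at least 21 nt, 0.156 without testis, and 0.0533 to 0.156 with 1 tissue left out. The causes were not tested, apart from the fewer orders with 5 tissues.

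Let-7a-5p in liver turned to -0.028 with scaling by total reads. In liver, the SHR against BN-Lx value of let-7e-5p turned to 0.11 without the filter and to 0.12 in the further livers alone. With 1 liver left out it ran from -0.41 to 0.37, and the values of let-7a-1/c-2-3p ran from -0.11 to 0.69, let-7d-5p from -0.31 to 1.16, let-7f-1-3p from -0.64 to 0.28 and let-7f-5p from -0.51 to 0.043.

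The replicate block changed no call in liver (0 of 266 arms, 22 at an unadjusted p under 0.05, 1 of them a let-7 arm), where let-7a-5p was -0.41 and let-7f-5p -0.27. For single arms and members 503 values under an alternative kept direction and side of the threshold, 128 lost the call or the side, 2 gained it and 13 changed sign. Depth limits testis most, with 434 and 828 let-7 reads.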
